A study of Mus musculus with 103 samples.

Results

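The tripartite motif (TRIM) genes were followed in mouse macrophages given the TLR4 agonist KLA, as all gene symbols made of Trim and a number that reached 1 RPKM (reads for each kilobase of a transcript, corrected for the size of the library) in 1 or more of 6 RNA libraries. Of the 66 such symbols in the authors' table, 36 met this rule, among 11260 of 24014 symbols that met it over the whole table. The cells were thioglycollate-elicited peritoneal macrophages, which gather in the mouse abdomen after an irritant broth is injected, taken from male C57BL/6 mice of 6 to 8 weeks, cultured and kept in low serum overnight. They were given 100 ng/ml KLA (Kdo2-lipid A, the part of bacterial lipopolysaccharide that TLR4 senses) for 1, 6, 12 or 24 h or left untreated, with 1 untreated library as the control of 1, 6 and 12 h and another as the control of 24 h. Each condition was 1 library of poly(A) RNA, so no difference has a replicate check and no p-value is given, and the 3 earlier times share their control. Lists of binding sites of LXR and SREBP1 in such macrophages were used as well, from samples titled with GW3965, an LXR agonist used at 1 µM. The treatment label of the LXR sample reads as a control, and the times of GW3965 named for the lists differ. Pooling of mice within a library is not stated in the labels.

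Most TRIM proteins carry a RING finger, 1 or more B-boxes and a coiled coil, followed by a C-terminal part that picks the target. The RING makes many of them E3 ubiquitin ligases, which attach ubiquitin to other proteins for degradation or signalling. In macrophages several are known as products of interferon-stimulated genes, as virus restriction factors and as regulators of the pathways from TLRs, RIG-I-like receptors and cGAS to NF-κB and interferon. A group of the branch defined by a PRY-SPRY domain lies side by side on mouse chromosome 7.

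The interferon-stimulated response element (ISRE) is a DNA element known from promoters of interferon-stimulated genes, and its core was searched as GAAA, any 2 bases and GAAA on both strands of RefSeq promoters (build GRCm38.p6, 250 bases before to 50 after each annotated start). These promoters could be matched by symbol for 26 of the 36 genes. Those not matched were Trim3, Trim8, Trim11, Trim14, Trim16, Trim29, Trim33, Trim35, Trim36 and Trim65. The core was present in the promoters of 8 of the 26, namely Trim2, Trim12a, Trim12c, Trim21, Trim26, Trim30a, Trim30d and Trim34a, while 3.44% of all 32851 promoters and 3.99% of 27025 genes held it. Of these 8, 7 were at least 2-fold higher after 6 h of KLA, and they are 7 of the 11 such genes with a promoter in the table, against 1 of the 15 other members matched. That grouping follows the RNA values below and has no test. The share with the core among all genes higher at 6 h was not counted. The 7 are shown as 30 bases in the direction of the gene, with the core in capitals, which reads TTTC, 2 bases and TTTC where it lies on the opposite strand.
Trim30a: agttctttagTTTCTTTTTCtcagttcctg
Trim30d: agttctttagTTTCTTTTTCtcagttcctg
Trim12a: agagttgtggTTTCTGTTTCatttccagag
Trim12c: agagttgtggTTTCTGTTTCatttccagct
Trim34a: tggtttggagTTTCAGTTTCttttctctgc
Trim21: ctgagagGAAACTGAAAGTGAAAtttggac
Trim26: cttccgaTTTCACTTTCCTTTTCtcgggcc
The Trim30a and Trim30d windows were identical at 30 of 30 bases, and those of Trim12a and Trim12c at 28 of 30. These pairs are near copies and not independent sequences. Trim21 and Trim26 each had 2 overlapping cores in a row. Relative to the start, counted as 0, the cores lay at -36 to -27 in the Trim30a promoter shown (chr7:104465210-104465239 for the window, minus strand), at -41 to -32 in Trim30d (chr7:104507871-104507900, minus strand) and at -29 to -20 in Trim12c (chr7:104353359-104353388, minus strand). Those of Trim12a (chr7:104315466-104315495, minus strand) and Trim34a (chr7:104244457-104244486, plus strand) lay just downstream, at 10 to 19, and that of Trim21 at 13 to 28 (chr7:102565447-102565476, minus strand). Trim26 had its pair of cores at -160 to -145 (chr17:36836979-36837008, plus strand). Another Trim30a promoter in the table also held a core, at 2 to 11 (chr7:104446104-104446133, minus strand).

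The 250 bases upstream of the start are printed for 3 of them, to show where the core sits in a promoter of the highest member, of one of the Trim12 pair and of a gene outside the cluster.
Trim30a: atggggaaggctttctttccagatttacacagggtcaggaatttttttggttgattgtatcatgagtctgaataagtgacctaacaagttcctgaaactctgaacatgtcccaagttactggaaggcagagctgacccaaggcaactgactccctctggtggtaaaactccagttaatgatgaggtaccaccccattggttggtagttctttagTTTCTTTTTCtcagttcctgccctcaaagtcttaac
Trim12c: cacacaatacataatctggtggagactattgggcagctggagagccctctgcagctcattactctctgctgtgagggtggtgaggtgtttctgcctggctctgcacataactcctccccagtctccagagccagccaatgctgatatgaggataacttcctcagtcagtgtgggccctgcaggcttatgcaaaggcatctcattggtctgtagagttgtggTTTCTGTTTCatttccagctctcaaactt
Trim26: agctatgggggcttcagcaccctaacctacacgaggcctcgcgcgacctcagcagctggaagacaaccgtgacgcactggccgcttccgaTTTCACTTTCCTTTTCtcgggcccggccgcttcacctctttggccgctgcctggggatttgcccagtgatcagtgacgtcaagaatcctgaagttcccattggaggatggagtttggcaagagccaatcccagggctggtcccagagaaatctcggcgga
In this build they are chr7:104465194-104465443 (minus strand), chr7:104353350-104353599 (minus strand) and chr17:36836896-36837145 (plus strand). A κB site, the element bound by NF-κB, was searched as GGG, any 3 bases and TTCC on both strands. It was found in 1 of the 26 genes matched, Trim28, and in 6.31% of all genes and 5.56% of all promoters. Trim28 held no ISRE core. A match of letters is a description, and where none was found, as for Trim13, Trim25, Trim30b and Trim56, it says only that these letters are not in this window.

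Depth was low, at 2205187 to 2674826 reads a library, so that a single read on 1 kb of transcript amounts to 0.374 to 0.453 RPKM. The 5 macrophage markers in the table (Cd68, Emr1, Csf1r, Itgam and Lyz2) summed to 6067 to 10263 RPKM in the KLA libraries and 9140 to 11173 RPKM in the untreated ones. Neutrophil markers, of which S100a8 gave nearly all, summed to 43.3 to 118 RPKM after KLA and 39.1 to 45.5 RPKM in untreated cells, with Mpo at 0. Mesothelial and fibroblast markers summed to 78.1 to 145 RPKM after KLA and 92.1 to 95.6 RPKM in untreated cells. Both sums were highest at 24 h of KLA, and their part in the TRIM values was not tested. Single markers of a list did not all move together, by the 2-fold call used below. At 24 h of KLA Col1a1 was higher and Upk3b lower. Of the macrophage markers, Csf1r was lower at 6 h, and at 12 and 24 h Emr1 was higher and Itgam lower. Lymphocyte markers summed to at most 6.82 RPKM, dendritic cell and mast cell markers to at most 1.73 RPKM, and 4 of 4 red cell markers were at 0. In such bulk RNA, fewer cells of a type and less RNA per cell cannot be told apart.

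**Figure D1:**
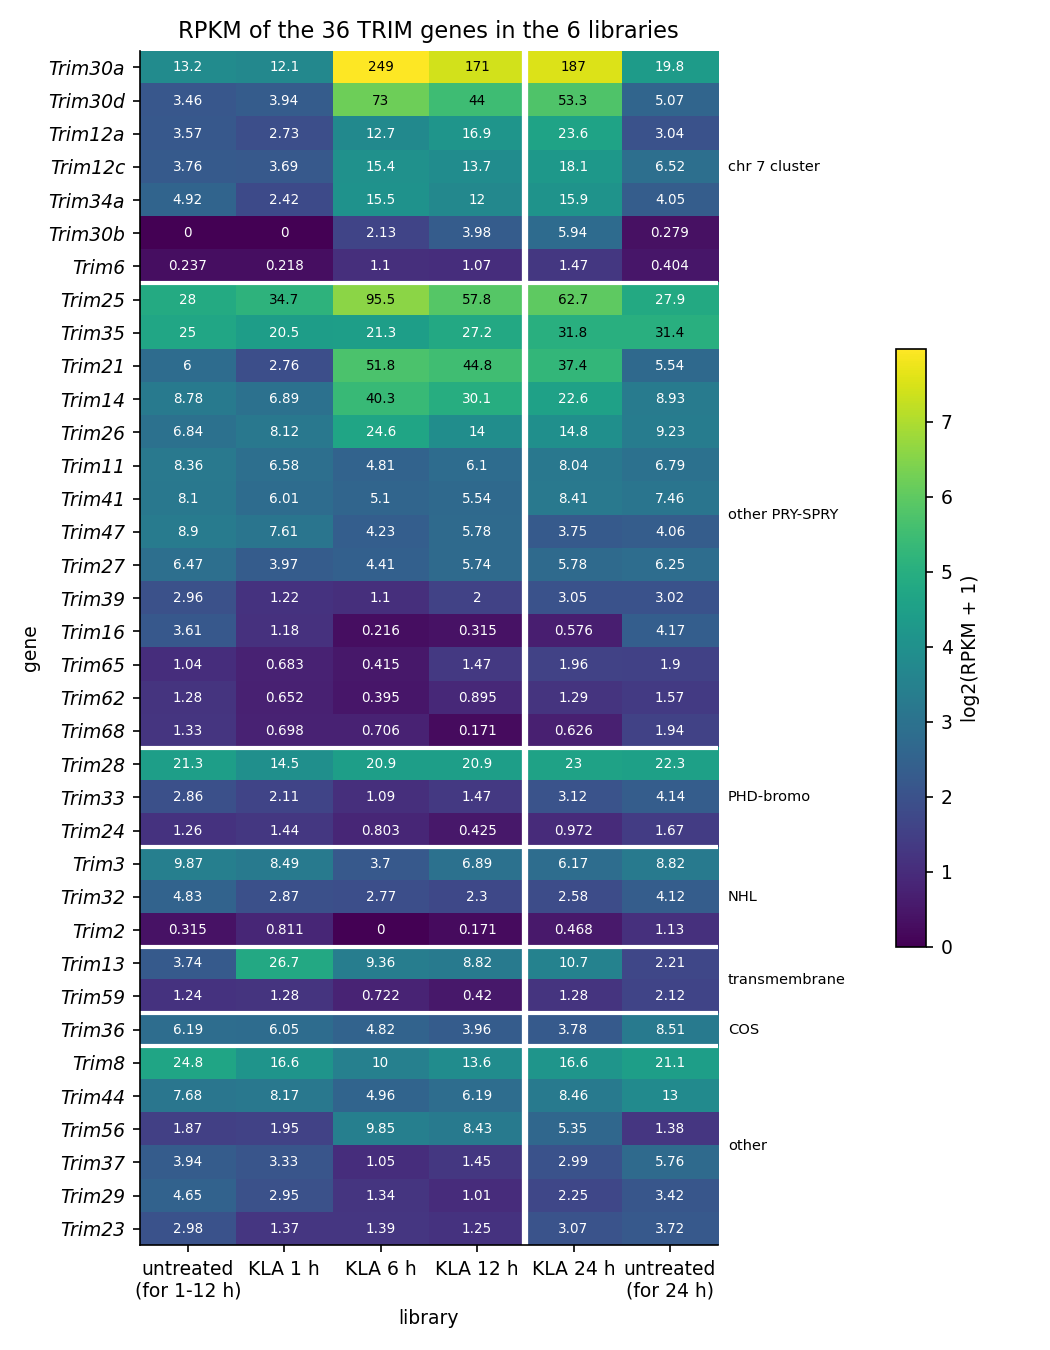
RPKM of the 36 TRIM genes (rows, grouped by C-terminal domain) in the 6 libraries (columns), coloured by log2(RPKM + 1). Trim30a reached 249, 171 and 187 RPKM after 6, 12 and 24 h of KLA, and Trim13 was highest at 1 h.

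As a family the TRIM genes split in KLA-treated macrophages: a block that includes Trim30a, Trim30d, Trim21, Trim14 and Trim25 was at least 2-fold higher at 6, 12 and 24 h, while most others stayed within 2-fold or were lower. On the log2(RPKM + 1) scale, which understates changes of low genes, 12 of 36 members were at least 2-fold higher and 5 at least 2-fold lower after 6 h, where 9.2% of the 11260 genes were higher and 21.7% lower. After 1 h 1 member was higher and 1 lower (3.79% and 4.25% of all genes). After 12 h 11 were higher and 3 lower (8.64% and 15.9%), and after 24 h 11 were higher and 1 lower (10.1% and 10.5%). The 11 at 12 h and at 24 h were the same genes, and all are among the 12 at 6 h. Every one of these calls also lay beyond counting error, a stricter rule that takes 2.87% of all genes as higher and 2.93% as lower at 1 h, 8.06% and 19.7% at 6 h, 7.6% and 14.1% at 12 h, and 8.85% and 9.24% at 24 h. Between the untreated library for 24 h and that for 1 to 12 h no member differed 2-fold (2.08% of all genes higher and 2.61% lower, or 0.782% and 1.4% by the stricter rule).

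Values of all genes leaned lower after KLA, with medians of -0.15, -0.44, -0.31 and -0.09 on the log2 scale at 1, 6, 12 and 24 h. The members' medians were -0.28, -0.39, -0.22 and 0.01. Relative to that shift, 13 members were at least 2-fold higher and 1 lower at 6 h (13.8% and 9.7% of all genes), and 13 higher and 2 lower at 12 h (11.9% and 8.61%). The summed level of the 36 genes was 243 RPKM in the untreated library for 1 to 12 h and 225, 696 and 542 RPKM after 1, 6 and 12 h of KLA, and it was 599 RPKM after 24 h of KLA, against 263 RPKM in the untreated library for 24 h. Of the members, 18 had their highest value in a KLA library (1 at 1 h, 7 at 6 h, none at 12 h and 10 at 24 h) and 18 in an untreated one. KLA libraries were 4 of the 6, and the same split over all genes was not counted.

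**Figure D2:**
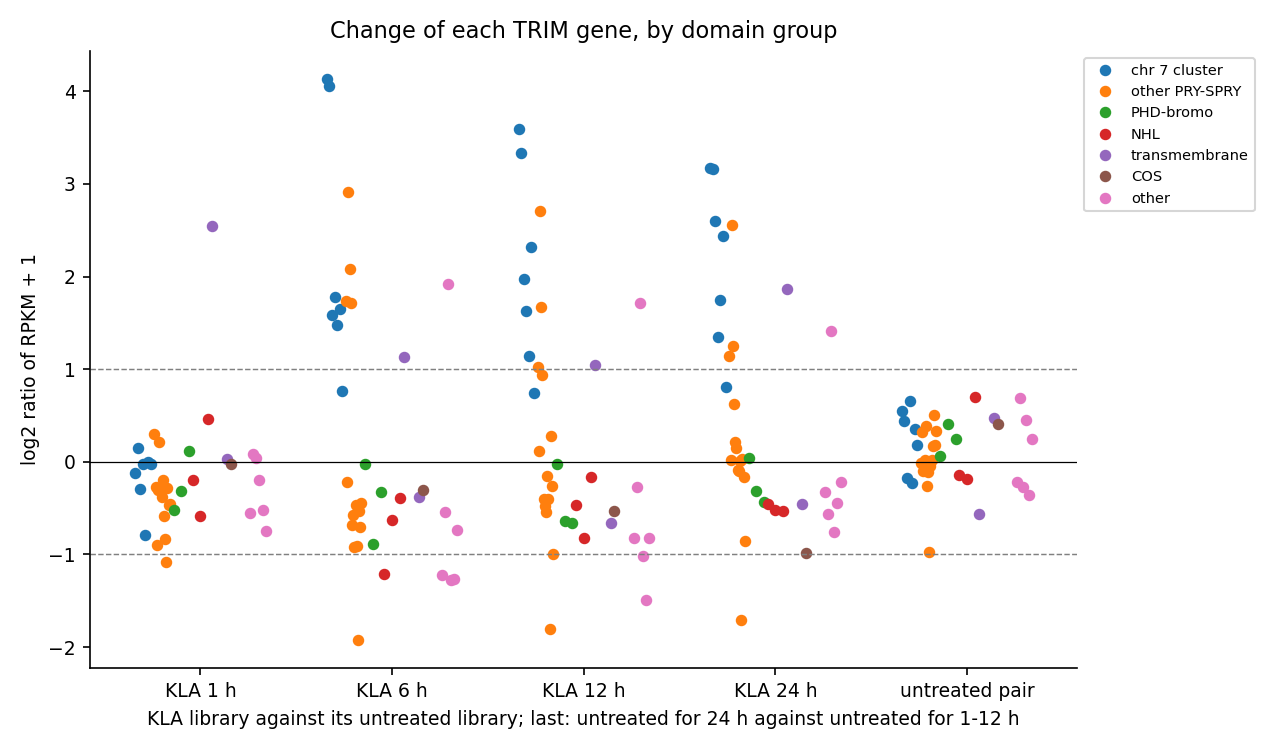
Log2 ratio of RPKM + 1 for each of the 36 TRIM genes at each time of KLA against its untreated library, coloured by domain group, with the pair of untreated libraries last; dashed lines mark 2-fold. The genes of the chromosome 7 cluster reach 4.13 at 6 h, and no gene passes 2-fold between the untreated libraries.

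The chromosome 7 cluster held 6 of the 12 genes higher at 6 h. In mm9, the build of the authors' table, 317 kb hold 9 TRIM symbols, 7 of them members, and 1 other symbol, Gm15133, which stayed at 1.48 RPKM or less. All 7 were listed by symbol with the PRY-SPRY branch of the family, and whether each protein carries that domain was not checked. Of the 7, 6 were at least 2-fold higher at 6, 12 and 24 h, while none was at 1 h. The 7 together made up 12.0% of the summed TRIM level in the untreated library for 1 to 12 h. After 1, 6 and 12 h of KLA they made up 11.1%, 53.0% and 48.4%. After 24 h they made up 51.0% with KLA, against 14.9% without.

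Trim30a, a ligase known in mouse to target TAB2 and TAB3 and so to dampen TLR signalling to NF-κB, lies at chr7:111557540-111613707 on the minus strand (NM_009099). It had 13.2 RPKM in the untreated library for 1 to 12 h and 12.1, 249 and 171 RPKM after 1, 6 and 12 h of KLA, and then 187 RPKM after 24 h of KLA, against 19.8 RPKM in the untreated library for 24 h. The library at 1 h thus sat with the untreated ones and the 3 later ones far above. The ratio was 18.8 at 6 h (95% exact counting interval 15.5 to 23.0), 12.9 at 12 h (10.6 to 15.8) and 9.45 at 24 h (8.14 to 11.0). It was the highest TRIM RNA at 6, 12 and 24 h, with 31.2% to 35.8% of the summed level. The untreated libraries themselves differed, by a ratio of 1.50 (1.18 to 1.91) for 24 h over 1 to 12 h.

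Trim30d, its neighbour and near copy (chr7:111618529-111656363, minus strand), had 3.46 RPKM in the untreated library for 1 to 12 h and 3.94, 73.0 and 44.0 RPKM after 1, 6 and 12 h of KLA. After 24 h it had 53.3 RPKM with KLA, against 5.07 RPKM without. These are ratios of 21.1 (14.2 to 32.9) at 6 h, 12.7 (8.48 to 19.9) at 12 h and 10.5 (7.70 to 14.7) at 24 h, close to those of Trim30a. Trim30b, the third copy (chr7:111503912-111507160, minus strand), had no read in the untreated library for 1 to 12 h or after 1 h of KLA, and 2.13 and 3.98 RPKM after 6 and 12 h. It had 5.94 RPKM after 24 h of KLA, against 0.279 RPKM (2 reads) in the untreated library for 24 h. From 14 reads at 6 h and 27 at 12 h against 0, the exact counting interval put it at least 3.08-fold and at least 6.16-fold higher, and the ratio at 24 h was 21.3 (5.55 to 181). The 2-fold call at 6 h is lost with a pseudocount of 3 (0.77 on the log2 scale). The sources used here do not say how reads shared by these copies were assigned, so the division among the Trim30 genes is uncertain, although the table lists 1 genomic copy for each.

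Trim12a and Trim12c, rodent relatives of the primate retrovirus restriction factor TRIM5, were higher as well. Trim12a (chr7:111448411-111464009, minus strand) had 3.57 RPKM in the untreated library for 1 to 12 h and 2.73, 12.7 and 16.9 RPKM after 1, 6 and 12 h of KLA, and 23.6 RPKM after 24 h of KLA, against 3.04 RPKM without. Unlike Trim30a, its level was higher at 24 h of KLA than at 6 h, by a ratio of 1.85 (1.29 to 2.69), where that of Trim30a was 0.751 (0.706 to 0.799). Trim12c (chr7:111487268-111501863, minus strand) had 3.76 RPKM in the untreated library for 1 to 12 h and 3.69, 15.4 and 13.7 RPKM after 1, 6 and 12 h, and 18.1 RPKM after 24 h of KLA, against 6.52 RPKM without. Its ratio of 2.78 at 24 h (2.06 to 3.78) is against an untreated library that was itself 1.73 times (1.10 to 2.78) the other, and its 2-fold call at 12 h is lost against that library (0.96 on the log2 scale). The same uncertainty about shared reads holds for this pair.

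At the left end of the cluster lie Trim6 and Trim34a. Trim34a (chr7:111392971-111410750, plus strand) had 4.92 RPKM in the untreated library for 1 to 12 h and 2.42, 15.5 and 12.0 RPKM after 1, 6 and 12 h of KLA, and 15.9 RPKM after 24 h of KLA, against 4.05 RPKM without. It was below its control at 1 h, at a ratio of 0.492 (0.244 to 0.954), and above it later, with ratios of 3.15, 2.45 and 3.94, of which the 2-fold call at 12 h is lost with a pseudocount of 3 (0.92 on the log2 scale). Trim6 (chr7:111367309-111383666, plus strand), whose human counterpart builds free ubiquitin chains that activate IKKε, reached only 1.07 to 1.47 RPKM at 6 to 24 h of KLA, against 0.237 and 0.404 RPKM in the untreated libraries. With 15 reads after 24 h of KLA and 4 in its control, the ratio was 3.63 (1.16 to 15.0), and it missed the 2-fold call on the log2(RPKM + 1) scale at each time. It passed relative to the shift of all genes at 6 and 12 h (1.20 and 1.05), and with a pseudocount of 0.1 at 6, 12 and 24 h (1.83, 1.79 and 1.64). Trim34b had 1 read in all and Trim30e-ps1, a pseudogene, 1 read.

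**Figure D3:**
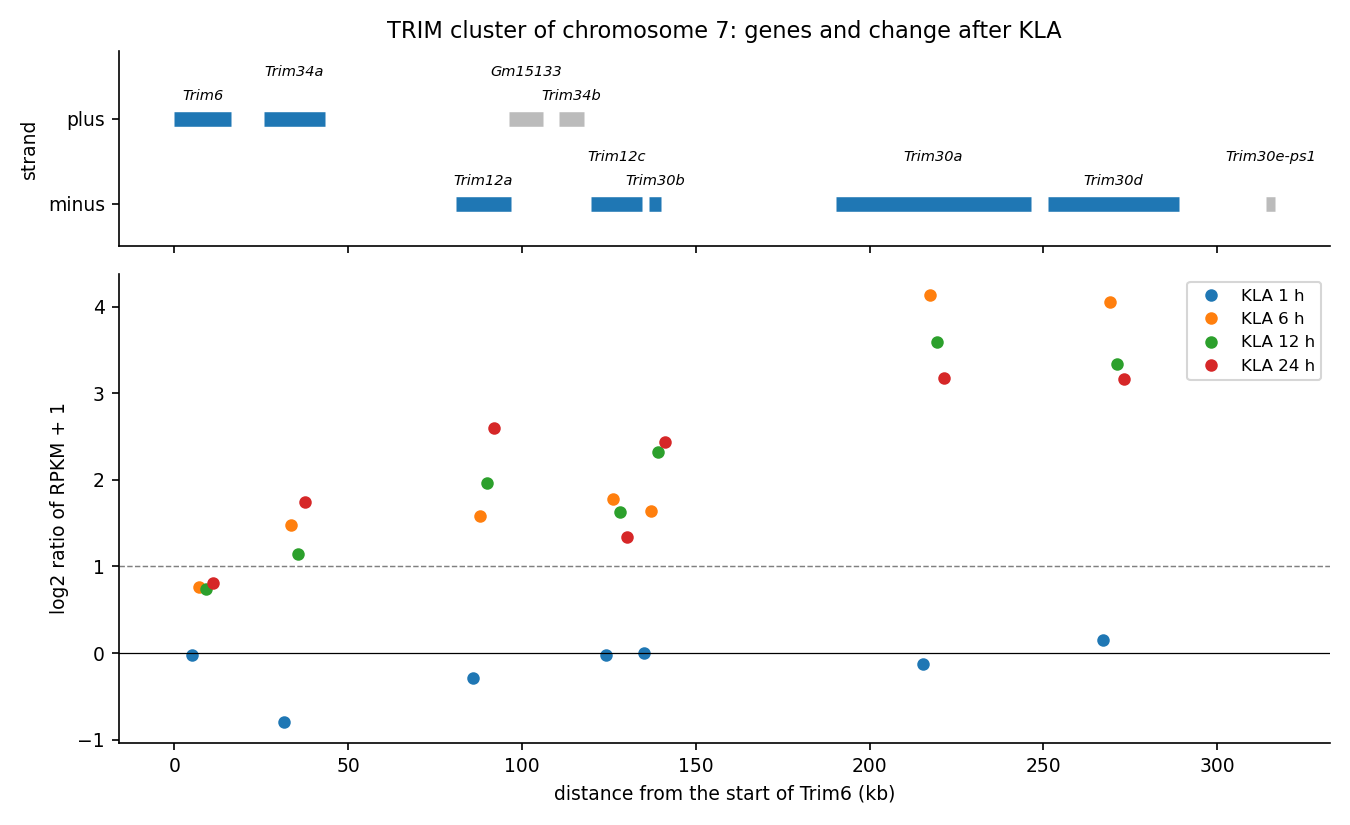
The TRIM cluster of mouse chromosome 7. Above, genes by distance from the start of Trim6 (kb) and strand, with the 7 members in blue and the others in grey; below, each member's log2 ratio of RPKM + 1 at the 4 times of KLA, with 2-fold dashed. Trim30a and Trim30d at the right have the highest ratios (4.13 and 4.05 at 6 h), and no member passes 2-fold at 1 h.

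Outside the cluster 14 members belong to the PRY-SPRY branch, and 4 of them, Trim25, Trim21, Trim14 and Trim26, were higher at 6 h. Trim25, the ligase that adds ubiquitin chains to the RNA sensor RIG-I, was the TRIM RNA of highest level in the untreated library for 1 to 12 h, at 28.0 RPKM, and had 34.7, 95.5 and 57.8 RPKM after 1, 6 and 12 h of KLA. After 24 h it had 62.7 RPKM with KLA, against 27.9 RPKM without, a ratio of 2.25 (2.00 to 2.54). It lay slightly above its control already at 1 h, at a ratio of 1.24 (1.07 to 1.43), and peaked at 6 h with 3.40 (3.02 to 3.85). At 12 h the ratio was 2.06 (1.81 to 2.35), and that 2-fold call is lost with a pseudocount of 3 (0.97 on the log2 scale). Trim21, a cytosolic antibody receptor that sends antibody-coated virus to the proteasome, had 6.00 RPKM in the untreated library for 1 to 12 h and 2.76, 51.8 and 44.8 RPKM after 1, 6 and 12 h of KLA. It had 37.4 RPKM after 24 h of KLA, against 5.54 RPKM without. It was below its control at 1 h (ratio 0.459, 0.246 to 0.831) and 8.62-fold (6.10 to 12.5) above it at 6 h, the third largest ratio among members with reads in that control.

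Trim14, which lacks a RING and is known as an adaptor of MAVS at mitochondria, had 8.78 RPKM in the untreated library for 1 to 12 h and 6.89, 40.3 and 30.1 RPKM after 1, 6 and 12 h of KLA. After 24 h it had 22.6 RPKM with KLA, against 8.93 RPKM without, a ratio of 2.54 (1.93 to 3.36). Trim26, known to act on IRF3 and on adaptors of RIG-I signalling, had 6.84 RPKM in the untreated library for 1 to 12 h and 8.12, 24.6 and 14.0 RPKM after 1, 6 and 12 h of KLA, and 14.8 RPKM after 24 h of KLA, against 9.23 RPKM without. The ratio was 3.60 (2.61 to 5.05) at 6 h and 2.05 (1.44 to 2.94) at 12 h. On the log2(RPKM + 1) scale the value at 12 h fell just short of 2-fold (0.94), though not relative to the shift of all genes (1.25) or with a pseudocount of 0.1 (1.02), and that at 24 h passes against the other untreated library alone (1.01). All 4 had their peak at 6 h, and their levels at 24 h of KLA were 0.562 to 0.722 of those at 6 h, each beyond counting error.

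A separate time course was that of Trim13, a ligase held in the endoplasmic reticulum membrane by a transmembrane segment and linked to NF-κB signalling and to autophagy of that organelle. Trim13 (chr14:62218349-62224782, plus strand) had 3.74 RPKM in the untreated library for 1 to 12 h and 26.7, 9.36 and 8.82 RPKM after 1, 6 and 12 h of KLA, and 10.7 RPKM after 24 h of KLA, against 2.21 RPKM without. It was the only member at least 2-fold higher at 1 h, at a ratio of 7.14 (3.99 to 13.9), from 101 reads after KLA and 13 in the control. The level at 6 h was 0.351 (0.231 to 0.519) of that at 1 h, and still above the control (2.50, 1.29 to 5.15). The 2-fold calls at 6 and 12 h are lost with a pseudocount of 3 (0.87 and 0.81 on the log2 scale). Dleu2, a noncoding RNA that overlaps Trim13 on the other strand, was at 2.95 RPKM after 1 h of KLA and 3.75 RPKM in that control, and whether counting told the strands apart is not stated. Trim59, the other transmembrane member, had 0.420 to 1.28 RPKM after KLA and 1.24 to 2.12 RPKM in untreated cells. Its lowest ratio, 0.338 at 12 h from 3 reads against 8, had an interval of 0.0577 to 1.41.

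Trim56, which is known to act on cGAS and STING and has none of the above domains after its coiled coil, had 1.87 RPKM in the untreated library for 1 to 12 h and 1.95, 9.85 and 8.43 RPKM after 1, 6 and 12 h of KLA. It had 5.35 RPKM after 24 h of KLA, against 1.38 RPKM without. The ratios were 5.27 (3.02 to 9.82) at 6 h and 3.87 (2.08 to 7.75) at 24 h, where the 2-fold call is lost with a pseudocount of 3 (0.93 on the log2 scale). It was the single gene of its group of 6 to be higher, while Trim8, Trim29 and Trim37 of the same group were lower.

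**Figure D4:**
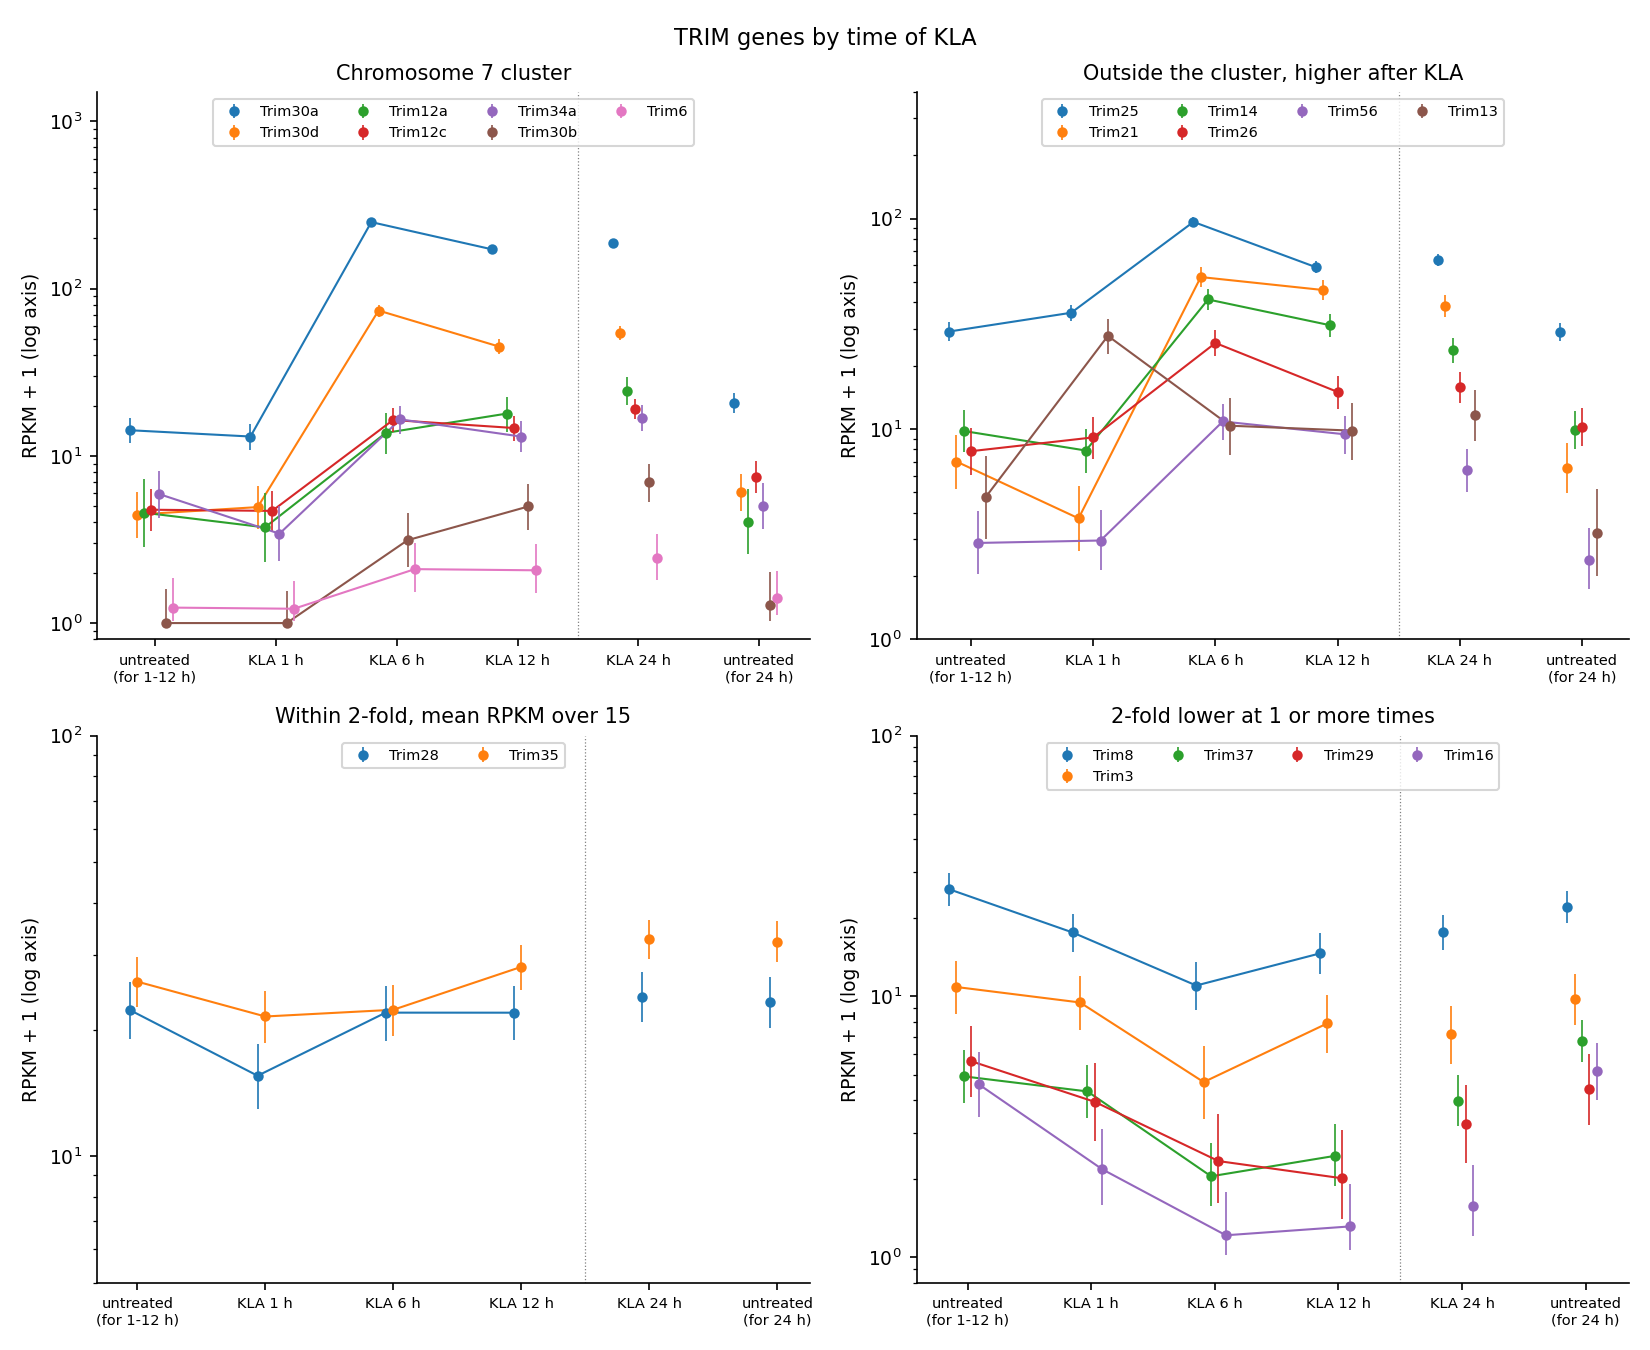
RPKM + 1 (log axis) of the 20 TRIM genes described singly, by library, with bars for the 95% exact Poisson interval of the reads; lines join the libraries that share a control. At 6 h the genes of both upper panels stand above their control, and Trim13 peaks at 1 h with 26.7 RPKM.

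The members of lower level after KLA were Trim8, Trim3, Trim37, Trim29 and Trim16. Trim16, a RING-less protein that recruits autophagy to damaged endosomes and lysosomes, had the largest difference. It had 3.61 RPKM in the untreated library for 1 to 12 h and 1.18, 0.216 and 0.315 RPKM after 1, 6 and 12 h of KLA, and 0.576 RPKM after 24 h of KLA, against 4.17 RPKM without. That is 2 reads after 6 h of KLA and 31 in the control, a ratio of 0.0600 (0.00695 to 0.236), and 6 reads after 24 h of KLA and 42 in the control, a ratio of 0.138 (0.0480 to 0.327). All 4 KLA libraries lay below both untreated libraries, and the 2-fold call holds relative to the shift of all genes at 6, 12 and 24 h but not at 1 h. With a pseudocount of 3 it is lost at 1 and 12 h (-0.66 and -0.996).

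Trim8, a nuclear ligase known to add ubiquitin to TAK1, had 24.8 RPKM in the untreated library for 1 to 12 h and 16.6, 10.0 and 13.6 RPKM after 1, 6 and 12 h of KLA. It had 16.6 RPKM after 24 h of KLA, against 21.1 RPKM without. Its lowest ratio was 0.404 (0.305 to 0.531) at 6 h, and by 24 h it was 0.787 (0.627 to 0.986). Trim3, a ligase with NHL repeats best known from neurons, had 9.87 RPKM in the untreated library for 1 to 12 h and 8.49, 3.70 and 6.89 RPKM after 1, 6 and 12 h of KLA, with a ratio of 0.375 (0.226 to 0.605) at 6 h, and 6.17 RPKM after 24 h of KLA, against 8.82 RPKM without. Both genes were thus lowest at 6 h. Trim37, a peroxisomal ligase, had 3.94 RPKM in the untreated library for 1 to 12 h and 3.33, 1.05 and 1.45 RPKM after 1, 6 and 12 h of KLA, and 2.99 RPKM after 24 h of KLA, against 5.76 RPKM without. Its ratio was 0.265 (0.135 to 0.489) at 6 h. Trim29, known in mouse alveolar macrophages to restrain NEMO, had 4.65 RPKM in the untreated library for 1 to 12 h and 2.95, 1.34 and 1.01 RPKM after 1, 6 and 12 h of KLA, and 2.25 RPKM after 24 h of KLA, against 3.42 RPKM without. At 12 h its 7 reads against 29 gave a ratio of 0.218 (0.0804 to 0.507). At 6 h the 2-fold calls of Trim8, Trim3, Trim37 and Trim29 are lost relative to the shift of all genes (-0.77 to -0.83 on the log2 scale), and that of Trim29 also against the untreated library for 24 h (-0.92). The call of Trim37 at 12 h is lost relative to that shift too (-0.70). With a pseudocount of 3 those of Trim3 at 6 h (-0.94), Trim37 at 6 and 12 h (-0.78 and -0.64) and Trim29 at 6 and 12 h (-0.82 and -0.93) are lost.

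Of the 8 members that averaged at least 15 RPKM, Trim28 and Trim35 stayed within 2-fold at each time. Trim28, or KAP1, the co-repressor that KRAB zinc finger proteins bring to retroelements, had 21.3 RPKM in the untreated library for 1 to 12 h and 14.5, 20.9 and 20.9 RPKM after 1, 6 and 12 h of KLA. After 24 h it had 23.0 RPKM with KLA, against 22.3 RPKM without. The library at 1 h alone stood below, at a ratio of 0.683 (0.531 to 0.877). Trim35, a PRY-SPRY ligase first described in blood cells, had 25.0 RPKM in the untreated library for 1 to 12 h and 20.5, 21.3 and 27.2 RPKM after 1, 6 and 12 h of KLA, and 31.8 RPKM after 24 h of KLA, against 31.4 RPKM without. At 24 h the ratio was 1.01 (0.861 to 1.19).

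The 16 members not described singly were at most 8.90 RPKM in the untreated library for 1 to 12 h. As every member with a 2-fold call was described singly, they lie within 2-fold by that choice. At 6 h they ranged from -0.92 (Trim47) to -0.30 (Trim36) on the log2 scale, with a median of -0.56. The median of all genes was -0.44, but all genes include those called higher or lower, so the sets are unlike. By 24 h the 16 ranged from -0.99 (Trim36) to 0.22 (Trim11). Trim24 and Trim33, which like Trim28 carry a PHD finger and bromodomain and act on transcription, were at -0.32 and -0.88 at 6 h. Trim36, the one member with a COS box, which binds microtubules, had 3.78 RPKM after 24 h of KLA, against 8.51 RPKM without. The rule's limit ran between Trim2 and Trim6, with maxima of 1.13 and 1.47 RPKM, and Trim45 and Trim7, with 0.95 and 0.916 RPKM. Of the 30 TRIM symbols below it, 19 were listed at 0 in all 6 libraries, Trim38 among them, and 11 had at least 1 read. Trim6 and Trim30b met the rule through KLA libraries alone.

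Of TRIM proteins that go by other symbols, Pml, Mefv and Mid1 were at least 2-fold higher at 6 h. At 12 and 24 h this held for Pml and Mefv alone, and at 1 h for Mefv alone. Pml, the core of nuclear bodies, had 6.32 RPKM in the untreated library for 1 to 12 h and 4.22, 35.2 and 30.0 RPKM after 1, 6 and 12 h of KLA, and 26.1 RPKM after 24 h of KLA, against 6.27 RPKM without. Mefv, which encodes the inflammasome protein pyrin, had 0.734 RPKM in the untreated library for 1 to 12 h and 10.9, 17.0 and 19.6 RPKM after 1, 6 and 12 h, and 21.6 RPKM after 24 h of KLA, against 1.25 RPKM without. Mid1 had 8.95 RPKM after 6 h and 6.22 RPKM after 12 h of KLA, against 2.73 RPKM in their control, with ratios of 3.28 (1.95 to 5.78) and 2.28 (1.31 to 4.10), and on the log2(RPKM + 1) scale the value at 6 h was past 2-fold and that at 12 h was not (0.95). Mid2 stayed under 1 RPKM.

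Among 23 genes of the pathways on which TRIM proteins act, 4, 13, 11 and 13 were at least 2-fold higher at 1, 6, 12 and 24 h of KLA, and 1 was lower, Mavs at 6 h. Ifnb1, the interferon that TLR4 induces through IRF3, stood at 30.3 RPKM after 1 h and 1.64 RPKM after 6 h of KLA and had no read in either untreated library (0 and 1.94 RPKM after 12 and 24 h). Its highest value was at 1 h, as was that of Trim13 alone among the members. Ddx58, which encodes RIG-I, the target of Trim25, had 85.4 RPKM after 6 h of KLA, against 3.67 RPKM in its control, and Irf7 had 699 RPKM, against 17.5 RPKM. Tab2, a target of Trim30a, was 2-fold higher at 6 h only (35.7 RPKM, against 16.3 RPKM), and Tab3, Traf3, Traf6, Irf3 and Map3k7 stayed within 2-fold at each time, by the same log2(RPKM + 1) call.

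Of 10 ubiquitin-conjugating enzymes from which such ligases take ubiquitin, Ube2l6, the E2 of the ubiquitin-like protein ISG15, was higher at all 4 times, with 131 RPKM after 6 h of KLA, against 8.83 RPKM in its control. Isg15 itself had 1808 RPKM after 6 h of KLA, against 5.41 RPKM. Ube2n, which makes K63-linked chains, was just past 2-fold lower at 6 h, with 1.31 RPKM, against 3.65 RPKM. At that time 21.7% of all genes were called lower, and relative to the shift of all genes the Ube2n call is lost. The other 8 stayed within 2-fold on the log2(RPKM + 1) scale at each time of KLA. Between the untreated libraries Ube2v1 was at least 2-fold lower in that for 24 h.

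LXR and SREBP1, the regulators that the ligand experiments of the series are about, had peaks near the starts of some TRIM genes. After GW3965 an LXR peak centre lay within 1 kb of the start of 18 of 36 members (50.0%), and of 50.6% of the 11260 genes. A SREBP1 peak did so for 11 of 36 (30.6%), and 40.1% of genes. Of the 12 genes higher at 6 h, those with an LXR peak were Trim12a, Trim14, Trim21, Trim25, Trim26, Trim30a and Trim34a. By the authors' own values, the largest LXR folds over the input in this window were 59.8 at Trim21 (-86 bases) and 42.1 at Trim25 (-42 bases). By score these peaks ranked 16213 and 9818 of 40660. Those of Trim47 and Trim37, genes not called higher, ranked 4688 and 4969, at 22.6-fold and 20.8-fold. Per the file headers the input of the LXR list came from cells given KLA for 24 h and that of the SREBP1 list from untreated cells, so neither fold compares ChIP and input of like treatment. Trim30a had both, LXR at -103 bases (10.7-fold) and SREBP1 at -404 bases (15.0-fold), and Trim6, Trim26, Trim36, Trim65 and Trim68 had both as well. Each list has no replicate, neither ChIP sample came from KLA-treated cells, and the LXR sample is titled as GW3965 while its treatment label reads as a control. The lists also differ in the time of GW3965 that label or header names, so genes with both peaks combine unlike treatments.

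**Figure D5:**
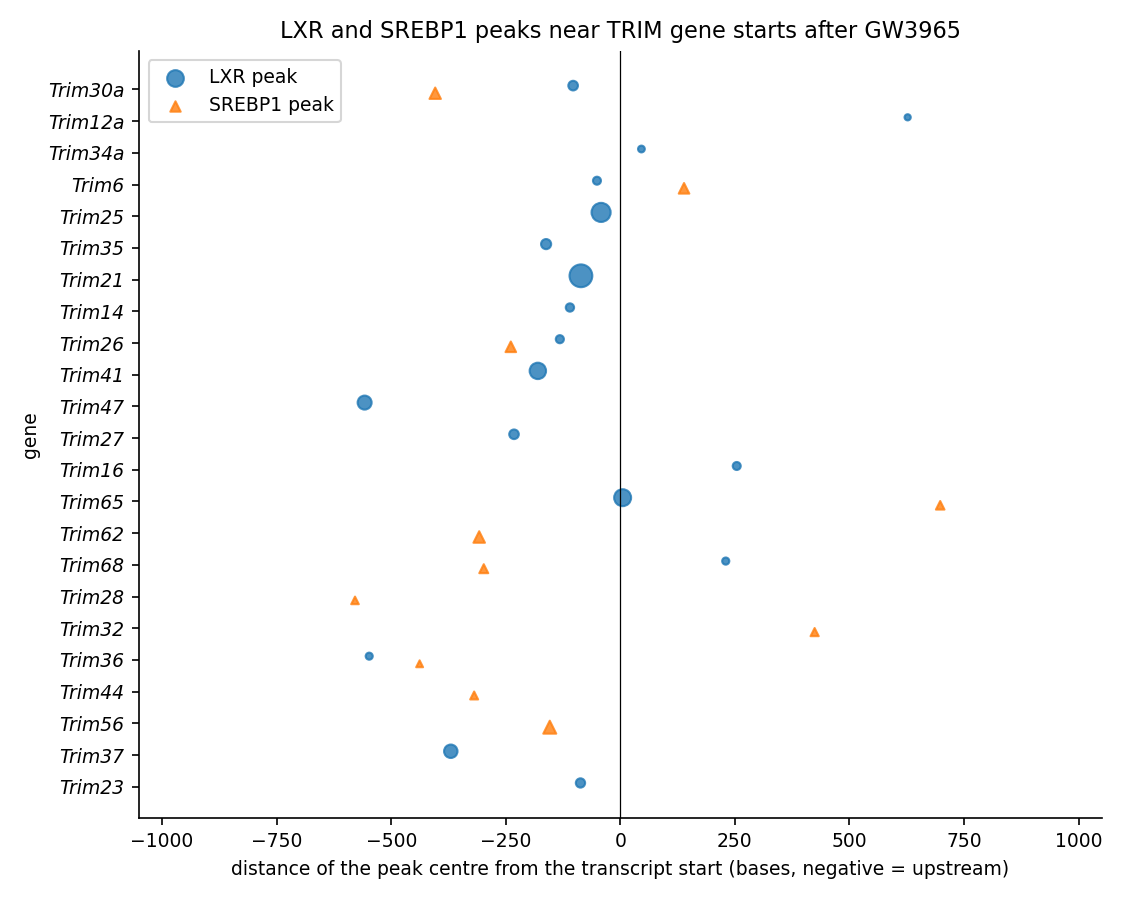
Distance of LXR (circles) and SREBP1 (triangles) peak centres from the transcript start, in bases, for the 23 TRIM genes with a peak within 1 kb; marker area is in proportion to the authors' fold over the input. The largest is LXR at Trim21, 59.8-fold at -86 bases, where the input had KLA for 24 h and the ChIP sample did not. By score that peak ranked 16213 of 40660.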

How the data were processed

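RNA of 6 libraries and 2 ChIP-seq peak lists were analysed, of 103 samples described. The RPKM values were deposited by the authors in 1 table on mm9. Bowtie 0.12.7, STAR and HOMER are named in the submitters' processing notes, and the sources used here do not say if counting used strand. Peaks were called with HOMER, per the file headers, and the signal (normalised tag count), the score and the fold over input, a ratio, are the authors'. Each symbol was represented by its transcript of highest mean RPKM. Whole reads were recovered from RPKM, transcript length and a fitted library total, with 99.98% of values within 0.01 of a whole read. Changes are log2 ratios with a pseudocount of 1 and are called at 2-fold. Ratios of single genes are of RPKM, with 95% exact conditional binomial (Clopper-Pearson) intervals that cover counting error only. Singly described genes are those called at any time, those averaging 15 RPKM or more and the chromosome 7 cluster. Members and lists were chosen with earlier results of these data known. Promoters are from RefSeq (GRCm38.p6), and no coordinate was moved between builds. Methods were tested on simulated data (Python 3.11.15, scipy 1.17.1).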

Additional observations from a re-analysis of the deposited data

How the results depend on the processing

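With no replicate, a difference cannot be told apart from the spread between cultures, and counting error limits genes under 5 RPKM. No paired analysis was possible because each condition has 1 library. Counts of higher members stayed within 1.5 times of those given under all alternatives (10 to 13 at 6 h, 8 to 13 at 12 h, 10 to 12 at 24 h), except for 2 at 1 h with a pseudocount of 0.1 (5.93% of all genes). The shares of all genes called higher were 7.18% to 13.8% at 6 h, 6.81% to 11.9% at 12 h and 7.54% to 12.7% at 24 h. These ranges cover pseudocounts of 0.1 and 3, rescaling, the other untreated library and a minimum of 5 RPKM, which keeps 8027 of all 11260 genes. Of 45 calls of single genes, none changed direction, 39 held with libraries rescaled to a median of 0, 32 with a pseudocount of 3 (those lost are Trim16 at 1 h, Trim3, Trim13, Trim29, Trim30b and Trim37 at 6 h, Trim13, Trim16, Trim25, Trim29, Trim34a and Trim37 at 12 h, and Trim56 at 24 h), 43 against the other untreated library and 45 with a pseudocount of 0.1 or the longest transcript. Counts of lower members depended on the settings, as did the shares of all genes called lower, given in brackets in the same order. At 1, 6, 12 and 24 h they were 4, 12, 8 and 4 with a pseudocount of 0.1 (9.13%, 30.9%, 24.5% and 15.6%). With a pseudocount of 3 they were 0, 2 and 0 at 1, 6 and 12 h (1.26%, 12.3% and 8.3%), and with rescaled libraries 0 and 1 at 1 and 6 h (2.66% and 9.7%). Against the other untreated library they were 8, 7 and 2 at 6, 12 and 24 h (23.2%, 19.9% and 11.5%), and with a minimum of 5 RPKM they were 0, 3, 1 and 0 at the 4 times (3.33%, 23.4%, 16.9% and 11.3%). The members' median became 0.0504 and 0.0949 with rescaled libraries at 6 and 12 h, 0 with no filter at 1 and 6 h, and 1.13, 0.94 and 0.63 with a minimum of 5 RPKM at 6, 12 and 24 h. This minimum keeps fewer genes and fewer members, so its counts are of a smaller set. As 1 library suffices to pass it, it keeps members that reach it after KLA alone, such as Trim30b and Trim56. The members' medians under it are thus raised by the rule itself, and no median of all genes is given beside them. Between the untreated libraries 3 members differed 2-fold with a pseudocount of 0.1, an alternative chosen after seeing the data. No share of all genes is given for that setting. With LXR peaks above the list's median score alone, 8 of 36 members had a peak (22.2%, against 25.4% of all genes), and 19 had a SREBP1 peak within 10 kb (52.8%, against 58.1%).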
